A study of Homo sapiens with 30 samples.

Results

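The response of SH-EP cells carrying T58A S62A MYCN to CYC065 was compared with the response of SH-EP cells carrying WT MYCN. SH-EP is an established neuroblastoma (NB) line of mesenchymal type, and the MYCN lines were made from it by stable retroviral expression, so MYCN is driven by an exogenous promoter in both. Its members are the 12 libraries, of 30 in the series, that the labels give to these MYCN lines, in 4 groups of 3 libraries. The groups were WT MYCN in DMSO, WT MYCN in 1 μM CYC065, T58A S62A MYCN in DMSO and T58A S62A MYCN in 1 μM CYC065, each for 6 hours, and all of them share the SH-EP background and the same culture medium. Poly(A)-selected RNA-Seq gave FPKM (fragments per kilobase of transcript, scaled to library depth) for each gene. The sources used here do not say whether each line is 1 clone or a pool, so the line and its transgene cannot be told apart.

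MYCN is a transcription factor of the MYC family that binds DNA with its partner MAX, most often at the 6 bases CACGTG, known as the E-box. Phosphorylation of serine 62 stabilises the protein and phosphorylation of threonine 58 then marks it for degradation through the ubiquitin ligase subunit FBXW7, so alanine at both positions removes this route of turnover. CYC065 (fadraciclib) inhibits CDK9 and CDK2. CDK9 with cyclin T1 forms P-TEFb, the kinase that releases paused RNA polymerase II into elongation, and its inhibition depletes short-lived transcripts first, while CDK2 acts with cyclins E and A at the start of DNA synthesis.

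Genes averaging 1 FPKM or more over the series numbered 11575, and for each the change with CYC065 in each line was taken on the log2(FPKM + 0.1) scale after each library had been centred on the median of those genes. The difference in response is the change in T58A S62A minus the change in WT. A change on this scale is relative to the median level of each library, called relative to the median gene below. The median response over genes was 0.23 in WT and 0.23 in T58A S62A, so a response of 0 lies below the median response. The centring added 0.18 to every log2 response in WT and 0.15 in T58A S62A, so unequal FPKM can stand beside a response near 0. This scale understates the change of genes with low FPKM.

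The 12 libraries were similar in their correlation within groups and differed in relative depth. The correlation with the other libraries of the same group was between 0.926 and 0.950. Cufflinks files carry no counts, but the spacing of low FPKM gave a relative depth, with the deepest library at 1, of 0.532 to 1 in WT DMSO, 0.371 to 0.555 in WT CYC065, 0.470 to 0.629 in T58A S62A DMSO and 0.387 to 0.415 in T58A S62A CYC065. Of the mesenchymal markers, 7 of 8 averaged 1 FPKM or more over the 12 libraries, and their summed FPKM was 2170 to 2490 in WT DMSO, 3080 to 3200 in WT CYC065, 1720 to 1830 in T58A S62A DMSO and 2530 to 2540 in T58A S62A CYC065. Among 8 adrenergic neuroblast markers 1 had that mean, with a summed FPKM of 2.28 to 3.42 over the 12 libraries and PHOX2A and STMN2 at 0 in all of them. Of 6 epithelial markers 2 had it, namely the keratins KRT8 and KRT18, and KRT5 and KRT14 were at 0, while none of 7 blood and endothelial markers did, with HBB among those at 0 and the highest single value, 1.61 FPKM, for CD14 in a WT CYC065 library.

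The share of all FPKM in the ERCC spike-ins, synthetic RNAs added by cell number, differed with treatment and line. It was 3.58% to 6.01% in WT DMSO, 8.02% to 12.3% in WT CYC065, 3.15% to 3.89% in T58A S62A DMSO and 4.12% to 5.38% in T58A S62A CYC065. The WT groups did not overlap, nor did the T58A S62A groups. Scaled to the median log2 level of 55 spike-ins, the median response was -1.57 in WT and -0.97 in T58A S62A, and the median difference in response was 0.61. With FPKM as deposited the median response was 0.06 in WT and 0.07 in T58A S62A. The share is taken of summed FPKM and the scaling from the median spike-in, so they need not give the same shift. How far they differ was not tested. On that scale 89 genes rose (0.769% of those tested) and 10845 fell (93.7%) in WT, and 214 rose (1.85%) and 8829 fell (76.3%) in T58A S62A. The values below are relative to the median gene unless the spike-in scale is named. Moving to the spike-in scale shifted the median response by -1.80 in WT and by -1.20 in T58A S62A. In bulk RNA without spike-ins, fewer cells of a type and less RNA per cell cannot be told apart, and the spike-in scale refers to the number of cells used for dosing, which was not checked here.

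CYC065 changed a large part of the transcriptome in both lines, and the responses of the lines were similar across genes. In WT, 5228 genes rose (45.2% of those tested) and 3273 fell (28.3%). In T58A S62A, 5268 rose (45.5%) and 3336 fell (28.8%). These counts, and those of the lists below, are set against a change of 0 and not against the median response of 0.23. Across genes, the responses correlated with a Pearson r of 0.788 and a Spearman rho of 0.888, with no library in common, as a description over genes that are not independent replicates. The SD over genes of the log2 change was 1.06 in WT and 1.16 in T58A S62A, a ratio of 1.10. Set against the mean of its own DMSO libraries, each WT CYC065 library gave an SD of 1.17 to 1.18. Each T58A S62A CYC065 library gave 1.23 to 1.27, so the groups of 3 did not overlap. The 3 values of a line share 1 DMSO mean and are not independent. Around that mean, the SD over genes of a DMSO library was 0.394 to 0.468 in WT and 0.489 to 0.5 in T58A S62A. The part of this noise in the spread was not tested.

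The difference in response passed an adjusted p of 0.05 for 221 genes in a limma fit over all 30 libraries. It was higher in T58A S62A for 83 genes, 0.717% of those tested, and lower for 138 genes, 1.19%. The median difference was 0.64 among the former and -0.46 among the latter. Before adjustment, 1898 genes had a p under 0.05. The count depends on how the spread is estimated and scaled. With only the 12 libraries in the fit, 11 genes were higher and 3 lower. With FPKM as deposited 105 were higher and 87 lower, and with spike-in scaling 2004 were higher (17.3% of those tested) and 1 lower (0.00864%). With a filter at 5 FPKM 74 were higher and 216 lower. Leaving out 1 library at a time gave 109 to 464 calls, with the highest counts without the third WT DMSO library in column order (411) or the third T58A S62A DMSO library (464), and the lowest without the second WT DMSO library (109). Without the third WT CYC065 library 132 remained, without the second T58A S62A DMSO library 136, without the first T58A S62A CYC065 library 138, and without the first T58A S62A DMSO library 147. The genes passing in every one of these fits numbered 81, of which 41 were higher and 40 lower.

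**Figure D1:**
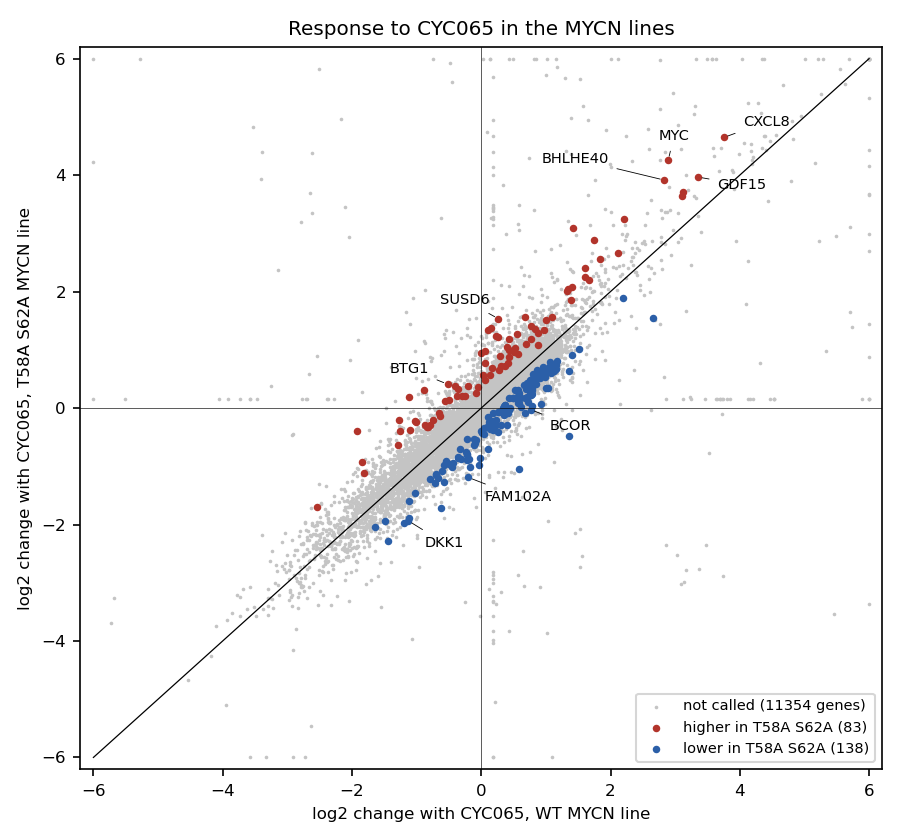
The log2 change with CYC065 in the WT line (x axis) against that in the T58A S62A line (y axis), 1 point per gene tested, with the diagonal marking equal responses. The 83 genes higher in T58A S62A (red) lie above the diagonal and the 138 lower (blue) below it, most of them close to it. Changes beyond 6 are drawn at the edge of the plot, and rows of grey points near 0 hold genes listed at 0 FPKM in all libraries of a line.

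The genes that differed did so in several ways. Of the 83 higher genes, 41 rose in both lines and rose further in T58A S62A, 11 fell in both and fell less, 14 rose in T58A S62A without passing in WT, 11 fell in WT without passing in T58A S62A, and 6 fell in WT and rose in T58A S62A. Of the 138 lower genes, 55 rose in both lines and rose less in T58A S62A, 30 fell in both and fell further, 25 rose in WT without passing in T58A S62A, 20 fell in T58A S62A without passing in WT, and 8 rose in WT and fell in T58A S62A. Over the whole table, 21 genes passed in both lines with opposite signs.

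The levels of these genes were compared between the lines before and after treatment, as a description, since both comparisons are part of the difference. In DMSO, where 8.9% of all genes tested were higher in T58A S62A than in WT and 14.9% were lower, 7 of the 83 were higher and 35 lower. In CYC065, where 12.4% of all genes were higher and 18.7% lower, 58 of the 83 were higher and 3 lower. Of the 138, 45 were higher and 13 lower in DMSO, and 5 were higher and 103 lower in CYC065. The single mutants, which do not enter the difference, had median responses between those of the WT and T58A S62A lines. For the 83 genes the median log2 response was 0.27 in WT, 0.58 with T58A, 0.52 with S62A and 0.92 with both, and for the 138 genes it was 0.44, 0.14, 0.16 and -0.001 in the same order. The genes were chosen for a gap between the WT and T58A S62A lines, which by itself tends to place other lines between them.

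The exogenous MYCN transcript and the targets of the drug showed no difference in response that passed the test. MYCN was listed at 0 in all 6 libraries of SH-EP without a transgene. It was at 11.7, 13.3 and 13.7 FPKM in WT DMSO and at 14.4, 16.2 and 18.7 in WT CYC065. In T58A S62A it was at 9.06, 15.7 and 15.7 FPKM in DMSO and at 16.5, 18.4 and 20.1 in CYC065. The lines overlapped in DMSO and in CYC065, and the difference in response was 0.11 ± 0.24 (SE, limma adjusted p = 0.86). For CDK9 the difference was -0.05 ± 0.13, for CDK2 it was -0.02 ± 0.10, and for MCL1, a short-lived survival protein of the BCL2 family, it was 0.12 ± 0.08, and none of them passed the test.

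MYC, the paralog of MYCN, had one of the largest differences. It was at 0.992, 0.995 and 1.13 FPKM in WT DMSO and at 6.88, 7.47 and 7.77 in WT CYC065. In T58A S62A it was at 0.377, 0.494 and 0.635 FPKM in DMSO and at 8.51, 10.8 and 11.1 in CYC065. The line with the lower MYC level in DMSO thus had the higher level in CYC065, and the groups of the lines did not overlap under either condition. MYC rose by 2.89 on the log2 scale in WT and by 4.25 in T58A S62A, a difference of 1.36 ± 0.24 (SE, limma adjusted p = 0.0041). On the spike-in scale MYC rose as well, by 1.09 and 3.14. Relative to the median gene it rose by 3.22 in T58A and by 3.12 in S62A. Between the lines, the level in DMSO was lower in T58A S62A by 0.95 (adjusted p = 0.00021) and the gap in CYC065 of 0.41 did not pass (adjusted p = 0.071). In the 6 SH-EP libraries without a transgene, MYC was at 4.64 to 18.6 FPKM.

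Of the 16 tested members of the MYC, MAX and MXD network, the group of E-box factors and their partners, MYC and FBXW7 were higher and none was lower. The median difference of the list was 0.09, beside 0.01 over all genes. FBXW7, which recognises MYC proteins phosphorylated at threonine 58, was at 3.92, 4.46 and 4.80 FPKM in WT DMSO and 11.3, 11.9 and 12.5 in WT CYC065. It was at 4.23, 4.48 and 4.61 FPKM in T58A S62A DMSO and 20.3, 21.8 and 22.2 in T58A S62A CYC065. The lines overlapped in DMSO and were separate in CYC065, with a difference in response of 0.80 ± 0.18 (limma adjusted p = 0.023). MAX, the common partner, had a difference of 0.11 ± 0.12, which did not pass.

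BHLHE40, an E-box binding repressor of the circadian clock and of stress responses, moved like MYC. It was at 8.10, 8.79 and 9.62 FPKM in WT DMSO and 54.9, 55.9 and 57.2 in WT CYC065. It was at 5.01, 5.44 and 6.20 FPKM in T58A S62A DMSO and 73.4, 74.7 and 80.6 in T58A S62A CYC065. It was the lower in T58A S62A before treatment and the higher after it, with no overlap, and the difference of 1.08 ± 0.13 had a limma adjusted p of 8.66e-05.

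An E-box lay within 250 bases upstream of the start site in BHLHE40, BCOR and CENPF. These are 3 of 41 genes picked by the naming rule with a called difference and an upstream sequence in the RefSeq table. Stretches on the chromosome that holds MYC, and of mitochondrial genes, were not extracted, so MYC is not shown to lack the motif. Named genes outside that rule were not examined singly and enter only the shares below. Their stretches are shown because MYCN and MAX are known for binding CACGTG. They are written 5′ to 3′ along the gene, on build GRCh38.p14, with the motif in capitals, at chr3:4979187-4979224 (plus strand) for BHLHE40, chrX:40177377-40177436 (minus strand) for BCOR and chr1:214602975-214603034 (plus strand) for CENPF.
BHLHE40: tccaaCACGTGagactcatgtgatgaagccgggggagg
BCOR: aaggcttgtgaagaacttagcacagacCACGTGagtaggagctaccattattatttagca
CENPF: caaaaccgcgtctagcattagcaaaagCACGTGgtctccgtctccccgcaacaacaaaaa
The motif reads the same on both strands. Among genes with an upstream sequence, it was found in 10 of 66 higher genes (15.2%), 12 of 116 lower genes (10.3%), 831 of 9074 genes that were not called (9.16%) and 6.49% of all 27305 entries of the table. The shares are descriptions of the letters and not evidence of binding.

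Relative to the median gene, SUSD6 and TAF3 rose in T58A S62A and did not pass in WT, while on the spike-in scale both fell in WT, by 1.53 and 1.69, and did not pass in T58A S62A, at 0.32 and 0.16. SUSD6, also known as DRAGO, a growth-restraining membrane protein, spans chr14:70078313-70181861 (GRCh37, plus strand). It was at 3.0, 3.43 and 3.59 FPKM in WT DMSO, 3.21, 3.71 and 3.74 in WT CYC065, 3.26, 3.38 and 3.46 in T58A S62A DMSO and 8.37, 8.62 and 9.80 in T58A S62A CYC065. Only the last group stood apart from the others, and the difference was 1.27 ± 0.17 (limma adjusted p = 0.00058). TAF3, a TFIID subunit that reads trimethylated lysine 4 of histone H3, was at 7.65 to 8.28 FPKM in WT CYC065 and at 14.7 to 16.0 in T58A S62A CYC065, and its difference was 1.23 ± 0.19. The estimates for both genes were also higher in the single mutants than in WT, a gap that was not tested. The log2 response of SUSD6 was 0.92 in T58A and 0.59 in S62A, and that of TAF3 1.11 and 0.95.

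TGIF1, a homeobox repressor of TGF-beta signalling, was at 18.1, 19.0 and 19.1 FPKM in WT DMSO and 15.8, 16.7 and 17.0 in WT CYC065. It was at 16.8, 21.4 and 25 FPKM in T58A S62A DMSO and 35.7, 35.7 and 37.2 in T58A S62A CYC065. The response was -0.01 in WT, -0.06 with T58A, 0.66 with S62A and 0.95 with both, and the difference between the last and WT was 0.96 ± 0.15 (limma adjusted p = 0.0014). TGIF1 fell by 1.86 in WT on the spike-in scale and did not pass in T58A S62A, at -0.28. For KLF2, a zinc finger factor, and DUSP5, a nuclear phosphatase that inactivates ERK, the estimates were also higher with S62A and with both changes than in WT or with T58A. In the same order they were 0.05, -0.002, 0.42 and 0.77 for KLF2 and 0.68, 0.75, 1.43 and 1.56 for DUSP5. Their differences between T58A S62A and WT were 0.72 ± 0.19 and 0.88 ± 0.16.

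PLCL2, a phospholipase C-like protein without catalytic activity, was at 1.59 to 2.28 FPKM in the 6 WT libraries, 3.77 to 3.90 in T58A S62A DMSO and 7.64 to 8.34 in T58A S62A CYC065, a difference of 0.96 ± 0.23. The T58A S62A line was thus the higher before treatment as well. SAT1, which acetylates spermidine and spermine for polyamine export, rose in both lines, from 6.11 to 6.42 FPKM to 17.2 to 19.5 in WT and from 2.17 to 5.46 FPKM to 19.9 to 27.9 in T58A S62A, a difference of 1.15 ± 0.28. ZNF654, a zinc finger gene, also rose in both, with a difference of 1.05 ± 0.20, and SETD9, a SET domain gene, rose in T58A S62A alone by the test within each line, with a difference of 0.92 ± 0.21. The differences of these 4 genes passed on the spike-in scale too, but there the responses of SAT1 and ZNF654 did not pass in WT (-0.11 and 0.38), and PLCL2 and SETD9 fell in WT by 1.49 and 1.75 and did not pass in T58A S62A.

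HIST1H3H, a histone H3 gene of the chromosome 6 cluster, had the largest difference among the named genes, 1.67 ± 0.37 (limma adjusted p = 0.018). It was at 2.87, 2.92 and 3.54 FPKM in WT DMSO, 6.78, 7.18 and 8.64 in WT CYC065, 1.14, 1.53 and 2.12 in T58A S62A DMSO and 12.1, 12.3 and 13.2 in T58A S62A CYC065. Of the 44 tested clustered histone genes it alone passed, although 33 had a difference above 0 and the median was 0.60. Most of these genes share near-identical copies and lack a poly(A) tail in cycling cells, so their FPKM from poly(A)-selected libraries are uncertain.

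**Figure D2:**
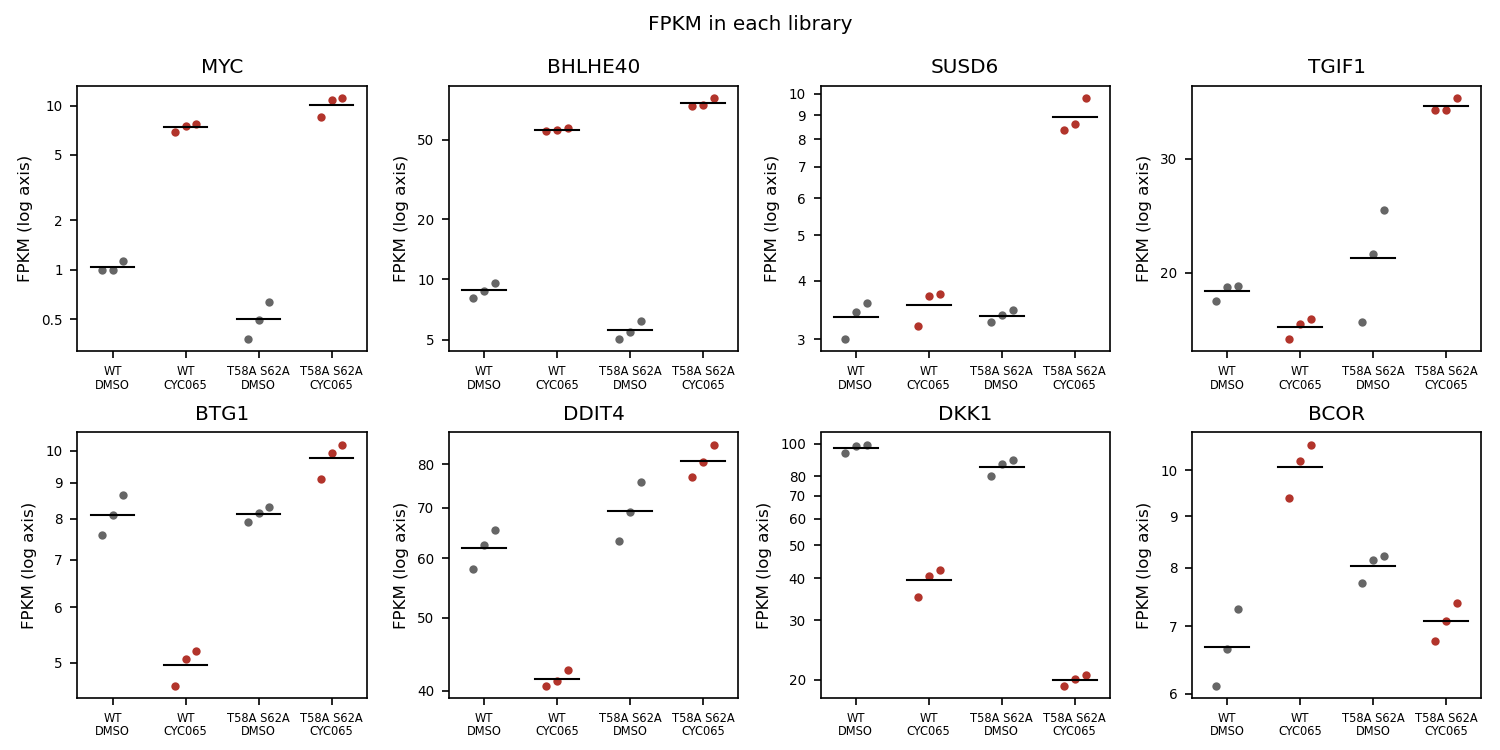
FPKM of 8 genes in each of the 12 libraries on log axes, with DMSO libraries in grey, CYC065 libraries in red and the mean of each group of 3 as a line. MYC and BHLHE40 cross from lower to higher in T58A S62A, SUSD6 and TGIF1 are highest in T58A S62A with CYC065, BTG1 and DDIT4 are lower with CYC065 in WT and not in T58A S62A, and DKK1 and BCOR end lower in T58A S62A.

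Relative to the median gene, BTG1, DDIT4, AKIRIN2 and ZNF883 led the genes that moved in opposite directions among those reaching 5 FPKM, and on the spike-in scale all 4 fell in both lines. BTG1, an antiproliferative partner of the CCR4-NOT deadenylase, spans chr12:92534054-92539622 (GRCh37, minus strand). It was at 7.59, 8.11 and 8.64 FPKM in WT DMSO and 4.64, 5.06 and 5.2 in WT CYC065. It was at 7.92, 8.17 and 8.31 FPKM in T58A S62A DMSO and 9.12, 9.92 and 10.2 in T58A S62A CYC065. The DMSO groups overlapped and the treated groups lay on opposite sides of them. BTG1 fell by 0.52 in WT and rose by 0.41 in T58A S62A on the log2 scale, a difference of 0.93 ± 0.11 (limma adjusted p = 8.66e-05), and its response was -0.59 in T58A and -0.07 in S62A. On the spike-in scale BTG1 fell by 2.34 in WT and by 0.81 in T58A S62A.

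DDIT4, also known as REDD1, an inhibitor of mTORC1 that responds to stress and to ATF4, was at 58.1, 62.4 and 65.4 FPKM in WT DMSO and 40.6, 41.2 and 42.6 in WT CYC065. It was at 63.2, 69.1 and 75.8 FPKM in T58A S62A DMSO and 77.0, 80.4 and 84.9 in T58A S62A CYC065. The difference was 0.78 ± 0.12 (limma adjusted p = 0.0014), and the response was -0.68 in T58A and 0.01 in S62A. AKIRIN2, a nuclear protein needed for import of the proteasome, went from 24.0 to 26.5 FPKM down to 16.7 to 18.3 in WT and from 17.0 to 19.3 up to 20 to 20.6 in T58A S62A, a difference of 0.68 ± 0.11. ZNF883 went the other way, from 7.35 to 9.62 to 8.67 to 11.8 FPKM in WT and from 8.69 to 10.9 to 6.66 to 7.50 in T58A S62A, a difference of -0.69 ± 0.18.

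Genes of the stress response led by ATF4, the factor that induces amino acid synthesis and transport, differed in both directions. Of 22 tested, CHAC1 and DDIT4 were higher and ASNS was lower, and the median difference was 0.06. CHAC1, which degrades glutathione, was at 3.0 to 4.35 FPKM in WT DMSO and 1.17 to 1.58 in WT CYC065, and at 2.61 to 3.13 and 2.88 to 3.24 in T58A S62A, a difference of 1.31 ± 0.30. Its response was -2.96 in T58A. ASNS, asparagine synthetase, was at 24.4 to 28.2 FPKM in WT DMSO and 37.9 to 40.7 in WT CYC065, and at 35.6 to 41.7 and 40.6 to 45.4 in T58A S62A, a difference of -0.46 ± 0.09 that became 0.17 on the spike-in scale. ASNS was thus already higher in T58A S62A before treatment, and the treated levels were close.

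The p53 targets, genes that the tumour suppressor p53 activates in arrest, repair and apoptosis, rose with CYC065 in both lines relative to the median gene, 22 of 27 tested in WT and 23 in T58A S62A. Of all genes tested, 45.2% and 45.5% rose. On the spike-in scale 4 rose and 17 fell in WT, where 0.769% of all genes rose and 93.7% fell. In T58A S62A 11 rose and 10 fell on that scale, where 1.85% of all genes rose and 76.3% fell. The difference in response was higher for PPM1D, GDF15, GADD45A, PLK2 and TNFRSF10B and lower for MDM2 and CDKN1A, whose spike-in estimates were above 0 at 0.14 and 0.33. It was above 0 for 21 of 27, beside 51.1% of all genes tested, and the median was 0.15. GADD45A, PLK2, TNFRSF10B and MDM2 were chosen after their values were seen, as members of these short counts.

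GDF15, a secreted stress cytokine, was at 29.2, 30.7 and 38.9 FPKM in WT DMSO and 278, 297 and 313 in WT CYC065. It was at 44, 54.4 and 59.8 FPKM in T58A S62A DMSO and 707, 720 and 782 in T58A S62A CYC065. It was higher in T58A S62A before and after treatment, and the difference in response was 0.61 ± 0.14 (limma adjusted p = 0.023). PLK2, a kinase of centriole duplication and stress responses, was at 68.6, 68.7 and 69.8 FPKM in WT DMSO, 249, 272 and 278 in WT CYC065, 68.5, 69.8 and 72.0 in T58A S62A DMSO and 395, 400 and 404 in T58A S62A CYC065. The lines overlapped in DMSO and were apart in CYC065, a difference of 0.54 ± 0.06 (limma adjusted p = 8.66e-05).

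GADD45A, which acts in DNA repair and growth arrest, reached 264 to 278 FPKM in WT and 353 to 375 in T58A S62A with CYC065, a difference of 0.58 ± 0.11. PPM1D, the phosphatase that switches p53 signalling off, reached 14.4 to 15.2 and 23.8 to 24.8 FPKM, a difference of 0.69 ± 0.15. TNFRSF10B, a receptor for the death ligand TRAIL, was at 12.4 to 13.1 and 25.8 to 27.6 FPKM with CYC065, after 15 to 15.8 and 23.7 to 26.5 in DMSO, a difference of 0.35 ± 0.09. Most of the gap between the lines in TNFRSF10B was therefore present in DMSO, where it was 0.68 on the log2 scale.

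MDM2, the ubiquitin ligase that degrades p53, was at 13.8, 14.1 and 14.4 FPKM in WT DMSO and 30.3, 32.9 and 36.0 in WT CYC065. It was at 15.7, 16.8 and 21.1 FPKM in T58A S62A DMSO and 28.1, 29.0 and 33.3 in T58A S62A CYC065. It rose by 1.40 and 0.91 on the log2 scale, and the treated groups overlapped, so the difference of -0.49 ± 0.12 (limma adjusted p = 0.043) combined a higher start with a similar end. CDKN1A, the CDK inhibitor p21, likewise started higher, at 81.2 to 84.5 FPKM in T58A S62A DMSO against 41.0 to 44.9 in WT DMSO, and reached 272 to 283 against 160 to 186, a difference of -0.30 ± 0.07.

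The AP-1 and immediate early genes, which growth factors and stress switch on within minutes, rose in both lines relative to the median gene. Those that rose numbered 22 of 27 in WT and 24 in T58A S62A, beside 45.2% and 45.5% of all genes. On the spike-in scale 11 rose in WT and 15 in T58A S62A, beside 0.769% and 1.85% of all genes. The difference was above 0 for 21 of 27 with a median of 0.25, and KLF2 and IER2 passed. IER2 was at 42.4, 46.6 and 52.1 FPKM in WT DMSO and 327, 355 and 392 in WT CYC065. It was at 43.2, 45.3 and 49.2 FPKM in T58A S62A DMSO and 502, 505 and 532 in T58A S62A CYC065. The lines overlapped in DMSO and were separate in CYC065, a difference of 0.53 ± 0.11 (limma adjusted p = 0.0095).

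**Figure D3:**
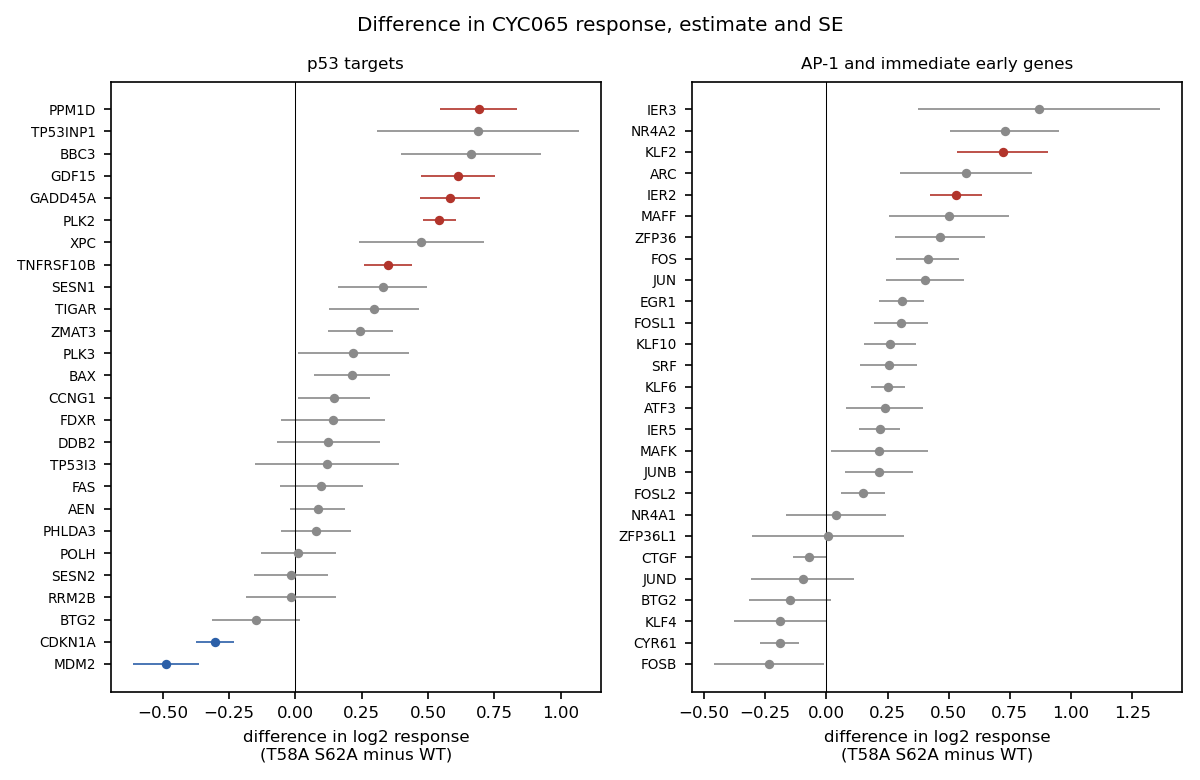
The difference in log2 response (T58A S62A minus WT) of 26 of the 27 tested p53 targets (left) and of each AP-1 or immediate early gene (right), with its standard error as a bar. Genes past an adjusted p of 0.05 are red where higher than 0 and blue where lower. In both full lists, counting the p53 target that is not drawn, 21 of 27 estimates lie above 0. MDM2 and CDKN1A, which lie above 0 on the spike-in scale, are at the low end of the p53 targets.

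Other signalling lists held few calls. CXCL8, the neutrophil chemokine interleukin 8 and the only call among 21 NF-kB targets, rose from 5.51 to 6.45 FPKM to 69.4 to 75.5 in WT and from 2.85 to 4.80 FPKM to 78.9 to 92.1 in T58A S62A, a difference of 0.89 ± 0.21. HES1, the Notch-responsive repressor, reached 39.0 to 45.5 FPKM in WT and 65.6 to 74.4 in T58A S62A after similar levels in DMSO, a difference of 0.67 ± 0.14, and was the 1 call among 7 ID and HES/HEY repressors. Among 19 genes of TGF-beta signalling 2 passed, both higher, and TGIF1, described above, had the larger difference of 0.96 ± 0.15.

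BAG3, a cochaperone of selective autophagy, was the 1 call among 25 heat shock and chaperone genes, with a difference of 0.43 ± 0.10. CCNK, the cyclin of the elongation kinases CDK12 and CDK13, was the 1 call among 32 P-TEFb and elongation regulators. It was at 21.3 to 23.4 FPKM in WT DMSO, 38.1 to 39.6 in WT CYC065, 17.4 to 19.0 in T58A S62A DMSO and 40.5 to 44.1 in T58A S62A CYC065. Between the lines, CCNK was lower in T58A S62A by 0.29 in DMSO, and the gap of 0.08 in CYC065 did not pass (adjusted p = 0.28). The difference in response was 0.37 ± 0.07 (limma adjusted p = 0.010), and the median of its list was 0.001. DUSP5 was the 1 call among 14 DUSP, Sprouty and Spred genes.

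Of the 138 lower genes, 26 stayed below 0 on the spike-in scale. FAM102A, an estrogen-induced gene, had one of the larger differences among the lower genes that reached 5 FPKM. It was at 10.1, 10.2 and 12.3 FPKM in WT DMSO and 7.71, 7.75 and 9.62 in WT CYC065. It was at 7.01, 8.24 and 8.26 FPKM in T58A S62A DMSO and 2.53, 2.95 and 3.66 in T58A S62A CYC065. The change in WT did not pass, and FAM102A fell by 1.19 on the log2 scale in T58A S62A, a difference of -0.99 ± 0.16 (limma adjusted p = 0.0023), beside responses of -0.39 in T58A and -0.89 in S62A. It fell by 2.04 in WT and by 2.41 in T58A S62A on the spike-in scale, and there the difference of -0.37 did not pass (adjusted p = 0.34).

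DKK1, the secreted inhibitor of WNT signalling, fell in both lines and fell further in T58A S62A. It was at 94.0, 98.2 and 99.3 FPKM in WT DMSO and 35.1, 40.7 and 42.3 in WT CYC065. It was at 79.9, 87.1 and 89.2 FPKM in T58A S62A DMSO and 19.2, 20.1 and 20.7 in T58A S62A CYC065. The treated T58A S62A libraries were the lowest of the 12, and the difference was -0.81 ± 0.14 (limma adjusted p = 0.0042), beside responses of -1.63 in T58A and -0.70 in S62A. When scaled to the spike-ins DKK1 fell by 2.99 and 3.17, and the difference of -0.18 did not pass (adjusted p = 0.53). DKK1 spans chr10:54074041-54077802 (GRCh37, plus strand), a short gene among the lower ones.

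BCOR, a corepressor of BCL6 and a subunit of a Polycomb complex, is on the X chromosome and, relative to the median gene, rose in WT alone by the test within each line. It was at 6.11, 6.65 and 7.28 FPKM in WT DMSO and 9.39, 10.2 and 10.6 in WT CYC065. It was at 7.72, 8.15 and 8.22 FPKM in T58A S62A DMSO and 6.77, 7.09 and 7.38 in T58A S62A CYC065. The difference was -0.79 ± 0.12 (limma adjusted p = 0.0013), and the response was 0.14 in T58A and 0.29 in S62A. CAMK4, a calcium and calmodulin kinase, DIS3L2, an exonuclease of uridylated RNA, and CDK18 followed the same course, with differences of -0.85 ± 0.20, -0.75 ± 0.19 and -0.74 ± 0.19. On the spike-in scale all 4 fell in both lines, BCOR by 1.07 and 1.25, and no difference passed, at -0.17 for BCOR (adjusted p = 0.59), -0.24 for CAMK4, -0.13 for DIS3L2 and -0.14 for CDK18.

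NREP, a small protein of regenerating neurons, was at 18.7 to 20.8 FPKM in WT DMSO, 16.1 to 18.3 in WT CYC065, 23.8 to 30.4 in T58A S62A DMSO and 11.4 to 14.7 in T58A S62A CYC065. Its response was -0.02 in WT and -0.13 in T58A but -0.87 in S62A and -0.86 in T58A S62A, and the difference from WT was -0.84 ± 0.14 (limma adjusted p = 0.0029). CASC5, the kinetochore scaffold also called KNL1, and CCSER2, a microtubule-linked protein, also fell in T58A S62A without passing in WT, with differences of -0.81 ± 0.17 and -0.95 ± 0.25. NCOA6, a nuclear receptor coactivator, ASF1A, a chaperone of histones H3 and H4, and SH3D19 fell in both lines and further in T58A S62A, with differences of -0.77 ± 0.18, -0.77 ± 0.19 and -0.71 ± 0.18. These 6 genes fell in both lines on the spike-in scale, and their differences, from -0.35 for CCSER2 to -0.16 for ASF1A, did not pass. Of 347 tested zinc finger genes named ZNF, 5 were higher and 2 lower, the latter being ZNF883 and ZNF181, for which the differences were -0.69 ± 0.18 and -1.08 ± 0.28, and -0.07 and -0.53 on the spike-in scale, where neither passed.

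Of 29 mitotic kinases, cyclins and spindle genes, KIF20A, CENPF, BUB1, TOP2A and CCNB1 passed, all lower relative to the median gene, with estimates of 0.19 to 0.31 and no call on the spike-in scale. Of the 29, 7 had a difference above 0. The median difference was -0.11. In WT 19 of the 29 fell, and in T58A S62A 21 fell, beside 28.3% and 28.8% of all genes tested. All 29 fell in both lines on the spike-in scale, where 93.7% and 76.3% of all genes did. BUB1, TOP2A and CCNB1 were chosen after their values were seen.

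CCNB1, cyclin B1, which drives entry into mitosis with CDK1, was at 177, 178 and 180 FPKM in WT DMSO and 130, 138 and 140 in WT CYC065. It was at 162, 167 and 186 FPKM in T58A S62A DMSO and 105, 108 and 108 in T58A S62A CYC065. The lines overlapped in DMSO and were separate in CYC065, a difference of -0.32 ± 0.07 (limma adjusted p = 0.016). KIF20A, a kinesin of cytokinesis, rose by 0.22 in WT and fell by 0.21 in T58A S62A, from 40.6 to 41.3 FPKM to 40.8 to 43.1 and from 34.9 to 40.8 FPKM to 28.1 to 29.3, and on the spike-in scale it fell in both. The change of KIF20A in WT was close to the median response of 0.23.

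BUB1, a kinase of the spindle checkpoint, was at 26.5 to 30.7 FPKM in WT CYC065 and 23.8 to 24.3 in T58A S62A CYC065, a difference of -0.39 ± 0.09. TOP2A, the topoisomerase that untangles chromosomes, was at 103 to 106 and 80.7 to 85.9 FPKM in the same groups, a difference of -0.37 ± 0.09. CENPF, a kinetochore protein, fell in both lines and was at 38.4 to 41.6 and 33.9 to 38.4 FPKM, a difference of -0.40 ± 0.10. For BUB1 and TOP2A the treated groups were separate, and for CENPF they met at 38.4 FPKM. Of 32 DNA replication genes none passed, with a median of 0.06, and of 21 CDK2, cyclin and G1/S genes only CDKN1A did.

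Matrix genes rose with CYC065 relative to the median gene, 29 of 30 in WT and 28 in T58A S62A, beside 45.2% and 45.5% of all genes. On the spike-in scale 29 fell in WT and 15 in T58A S62A, beside 93.7% and 76.3% of all genes. The difference was lower for THBS1, COL12A1, LAMC1 and COL3A1, and on the spike-in scale it was above 0 for all 4, at 0.21 to 0.38 and past no threshold. LAMC1 and COL3A1 were chosen after their values were seen. The median difference of the list was -0.05. COL12A1, a fibril-associated collagen, was at 11.1, 12.3 and 12.8 FPKM in WT DMSO, 22.7, 24.0 and 25 in WT CYC065, 14.3, 14.4 and 15.1 in T58A S62A DMSO and 20.7, 22.3 and 23.1 in T58A S62A CYC065. The start was higher and the end overlapped, a difference of -0.41 ± 0.09 (limma adjusted p = 0.019).

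THBS1, thrombospondin 1, was at 120 to 134 FPKM in WT DMSO and 108 to 134 in WT CYC065, and fell from 237 to 260 to 176 to 184 FPKM in T58A S62A, a difference of -0.42 ± 0.09. It was higher in T58A S62A under both conditions. For LAMC1, a laminin chain, and COL3A1, collagen III, the differences were -0.28 ± 0.07 and -0.25 ± 0.07. In DMSO 20 of the 30 matrix genes were lower in T58A S62A than in WT and 3 were higher, beside 14.9% and 8.9% of all genes tested. PDGFRB, the PDGF receptor and the 1 call among 17 receptor tyrosine kinases, reached 28.5 to 34.5 FPKM in WT and 20.7 to 23.7 in T58A S62A, a difference of -0.45 ± 0.09 that became 0.18 on the spike-in scale.

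**Figure D4:**
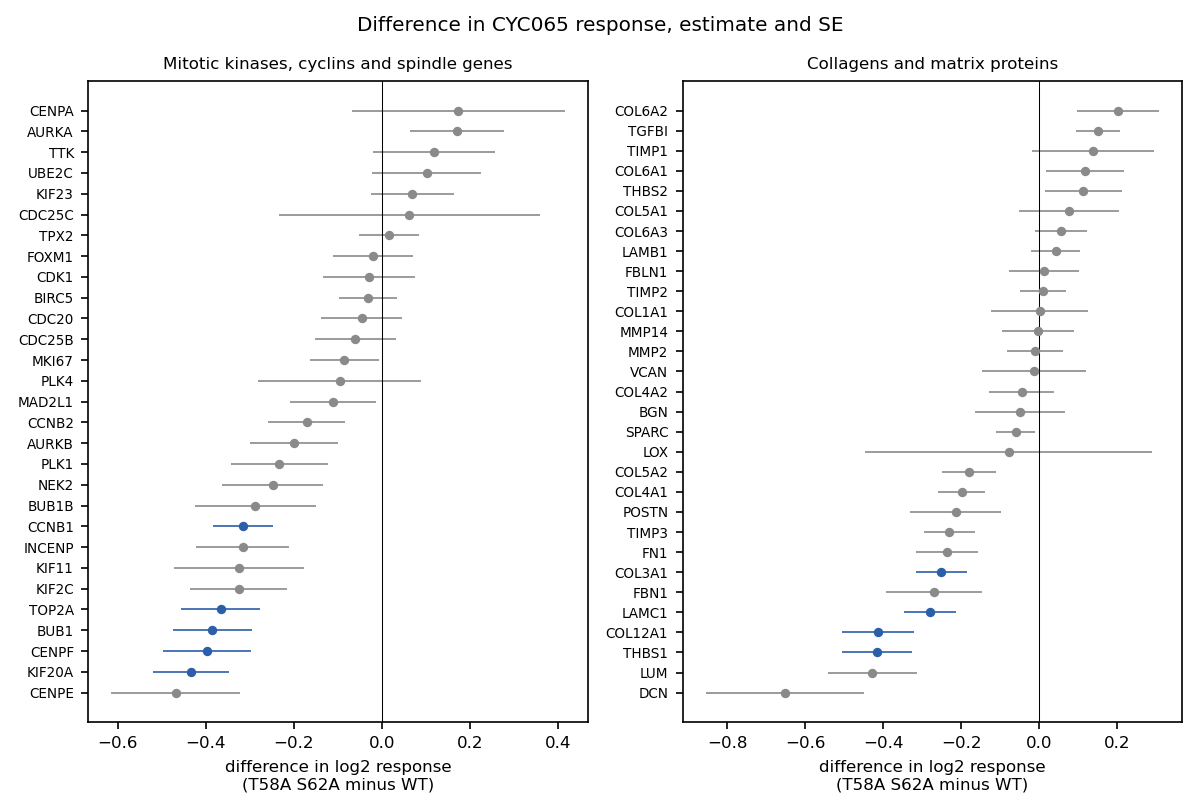
The difference in log2 response (T58A S62A minus WT) of each tested mitotic gene (left) and matrix gene (right), with its standard error as a bar. Genes past an adjusted p of 0.05 are blue, and all of them are lower. The 5 mitotic and 4 matrix genes that passed lie between -0.43 and -0.25 relative to the median gene, and above 0 on the spike-in scale.

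Single calls in 2 other lists were lower relative to the median gene and above 0 on the spike-in scale. WWTR1, the YAP paralog TAZ, was the 1 call among 24 genes of the YAP and TEAD pathway, with a difference of -0.34 ± 0.08. GART, an enzyme of purine synthesis, was the 1 call among 20 MYC-linked metabolic enzymes, with a difference of -0.26 ± 0.05.

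Lists drawn up after the values were seen, and so given as descriptions, add 3 groups of genes that were lower relative to the median gene, with estimates of 0.06 to 0.37 and no call on the spike-in scale. Among 19 large linker and motor proteins of the cytoskeleton, AHNAK, MACF1, DST, DYNC1H1, MYOF, SPTBN1, SPTAN1 and VCL were lower, with differences from -0.56 for AHNAK to -0.26 for VCL. SPTAN1, the nonerythroid alpha spectrin, was at 28.5 to 29.7 FPKM in WT DMSO, 32.5 to 33.2 in WT CYC065, 32.2 to 32.7 in T58A S62A DMSO and 29.5 to 30.7 in T58A S62A CYC065. Its rise in WT had no counterpart in T58A S62A, a difference of -0.31 ± 0.05. Among 11 integrin chains, ITGA1 and ITGA2, which pair with integrin beta 1 as collagen receptors, were lower at -0.50 ± 0.10 and -0.52 ± 0.12. Among 20 cytosolic aminoacyl-tRNA synthetases, GARS, LARS and NARS were lower at -0.32 ± 0.05, -0.29 ± 0.06 and -0.26 ± 0.07.

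Relative to the median gene, 0.717% of all genes tested were called higher and 1.19% lower, shares at which short lists hold few calls or none. On that scale several lists tied to MYCN held no call in either direction. These were 35 ribosome biogenesis and nucleolar genes, with a median difference of 0.04, 79 cytosolic ribosomal proteins at 0.13, 77 mitochondrial ribosomal proteins at 0.13, 78 respiratory chain subunits at 0.12, 8 adrenergic transcription factors at -0.01 and 30 mesenchymal transcription factors at -0.003. The estimate was above 0 for 63 of the 79 cytosolic ribosomal proteins, 57 of the 77 mitochondrial ones and 65 of the 78 respiratory chain subunits, beside 51.1% of all genes. On the spike-in scale, where 17.3% of all genes were higher, 42 of the 79, 33 of the 77 and 44 of the 78 were higher, as were 7 of the 35 ribosome biogenesis genes, 9 of the 30 mesenchymal factors and 0 of the 8 adrenergic factors. All 8 adrenergic factors tested, of 18 listed, fell in both lines, with median responses of -1.33 and -1.31 relative to the median gene. On that scale 28.3% and 28.8% of all genes fell, as did 16 and 15 of the 30 mesenchymal factors. The 8 fell on the spike-in scale too, where 93.7% and 76.3% of all genes did. Relative to the median gene there was also no call among 17 BCL2 family genes (0.12), 26 Polycomb and chromatin regulators (-0.05), 32 SR proteins, hnRNPs and CLK kinases (-0.01), 23 cholesterol synthesis genes (-0.03), 22 snoRNA host genes (0.09), 41 Mediator and RNA polymerase II subunits (0.01) and 168 antisense RNAs (0.15), where the value in brackets is the median difference.

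The called genes differed in length. Gene models of GRCh37 were found for 79 of the 83 higher, 127 of the 138 lower and 10369 of the 11354 other genes. The median span from first to last base was 27.4 kb for the higher genes, 70.5 kb for the lower genes and 31.7 kb for those not called. The merged exons covered a median of 4.86, 8.45 and 5.34 kb, and the median number of separate exon blocks was 7, 20 and 11. The median FPKM over the 4 groups was 20.6 for the higher, 17.6 for the lower and 10.7 for all genes tested. The part of transcript length and level in which genes were called was not tested.

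The gradient with span was also present over all genes. Split into 5 groups of 2115 genes by span, the median difference in response went from 0.12 in the shortest group to 0.05, -0.003, -0.04 and -0.08 in the longest. Higher calls numbered 23 in the shortest group (1.09%) and 16 in the longest (0.757%), and lower calls 7 (0.331%) and 56 (2.65%). Library by library, the median change of the longest group minus that of the shortest was -0.09, -0.11 and -0.16 in WT CYC065 and -0.29, -0.33 and -0.36 in T58A S62A CYC065, each against the mean of its own DMSO libraries. The change of long genes was thus below that of short ones in all 6 treated libraries, and the lines did not overlap. The 3 values of a line share 1 DMSO mean and are not independent. An exact permutation test cannot pass with 3 libraries against 3, where the smallest two-sided p is 0.10, so none was run. The treated groups of the lines overlapped in relative depth and were separate in spike-in share, as given above, and the part of that share in the gradient was not tested.

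**Figure D5:**
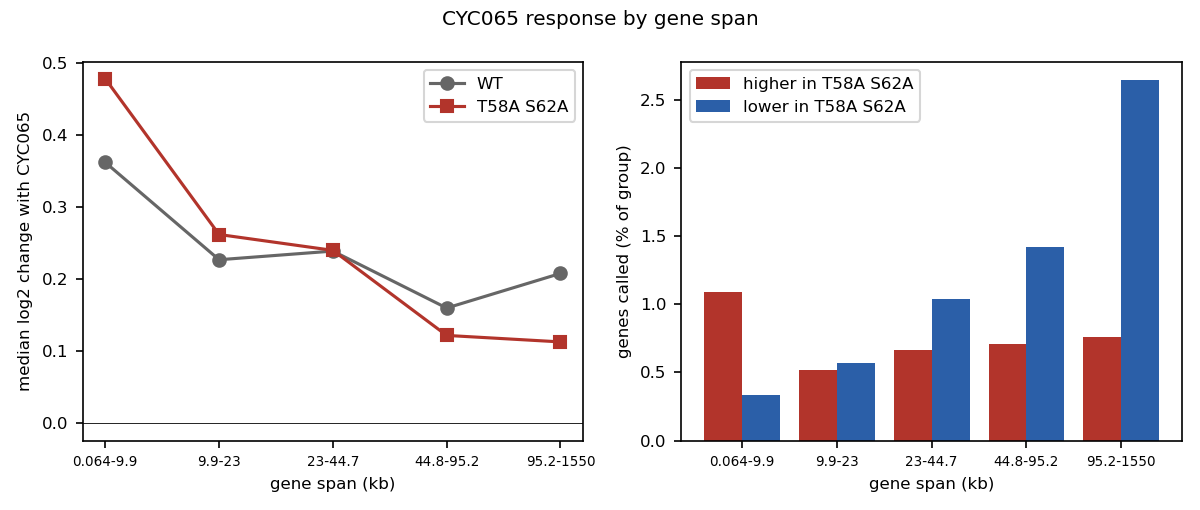
Genes split into 5 groups of equal number by span in kb (x axis). The left panel gives the median log2 change with CYC065 in each line, which went from 0.36 to 0.21 in WT and from 0.48 to 0.11 in T58A S62A, and the right panel gives the percent of each group called higher or lower.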

How the data were processed

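RNA-Seq was analysed for 30 libraries of SH-EP cells, of which the 12 of the WT and T58A S62A MYCN lines are compared here. The authors aligned reads to hg19 with HISAT and computed the deposited FPKM with Cufflinks in its strand-specific setting. The gene annotation is not given in the sources used here, and the deposited values are not scaled to spike-ins. The table holds 26228 genes and 92 spike-ins. Its columns name each group but carry other numbers than the labels, so libraries within a group are not matched to samples. Because FPKM are not counts, log2(FPKM + 0.1) was tested with limma 3.58.1 in R 4.3.3, with a mean for each of 10 groups, 20 residual degrees of freedom, eBayes with trend and Benjamini-Hochberg adjustment. All p-values are two-sided and measure the spread between libraries that may be technical replicates. The fit was also run on simulated data, with normal noise drawn independently for each library and the same spread of a gene in every group. Those data hold no batch or scaling error, so they cannot show how the fit handles either.

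The genes named were, past the adjusted p of 0.05, with at least 5 FPKM in 1 group and at 0 in no library, the 12 with the largest difference in each direction, then the 4 most opposed responses, the 2 largest in each gene list, and MYCN, MYC, CDK9, CDK2, MCL1 and markers, of which some genes are not reported here. The comparison and the lists were chosen with earlier results of these data known. Gene spans come from the lifted GENCODE annotation on GRCh37, matched for 10575 of the genes tested, and upstream sequences from RefSeq on GRCh38.p14, taking the first entry of a gene, matched for 9256. Depth is unknown in reads, and relative depth was read from the ratios of FPKM under 0.3 between libraries. The alternatives tried were pseudocounts of 1 and 0.01, no filter and a filter at 5 FPKM, FPKM as deposited, spike-in scaling, the 12 libraries alone, robust eBayes, a 1.5-fold minimum, leaving out each library and, added after the data were seen, a block on the column number.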

Additional observations from a re-analysis of the deposited data

Results flagged for a closer look

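The difference in response between the lines passed the test of the difference itself for 221 genes, and every named gene with a call is listed here with its log2 difference, T58A S62A minus WT, from the limma fit. With 3 libraries a group, no library was tested as standing apart.

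The higher genes were HIST1H3H 1.67, MYC 1.36, CHAC1 1.31, SUSD6 1.27, TAF3 1.23, SAT1 1.15, BHLHE40 1.08, ZNF654 1.05, TGIF1 0.96, PLCL2 0.96, BTG1 0.93, SETD9 0.92, CXCL8 0.89, DUSP5 0.88, FBXW7 0.80, DDIT4 0.78, KLF2 0.72, PPM1D 0.69, AKIRIN2 0.68, HES1 0.67, GDF15 0.61, GADD45A 0.58, PLK2 0.54, IER2 0.53, BAG3 0.43, CCNK 0.37 and TNFRSF10B 0.35.

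The lower genes were ZNF181 -1.08, FAM102A -0.99, CCSER2 -0.95, CAMK4 -0.85, NREP -0.84, CASC5 -0.81, DKK1 -0.81, BCOR -0.79, ASF1A -0.77, NCOA6 -0.77, DIS3L2 -0.75, CDK18 -0.74, SH3D19 -0.71, ZNF883 -0.69, AHNAK -0.56, ITGA2 -0.52, ITGA1 -0.50, MDM2 -0.49, MACF1 -0.48, DST -0.48, ASNS -0.46, PDGFRB -0.45, KIF20A -0.43, THBS1 -0.42, COL12A1 -0.41, CENPF -0.40, BUB1 -0.39, DYNC1H1 -0.37, TOP2A -0.37, MYOF -0.34, WWTR1 -0.34, SPTBN1 -0.33, CCNB1 -0.32, GARS -0.32, SPTAN1 -0.31, CDKN1A -0.30, LARS -0.29, LAMC1 -0.28, GART -0.26, VCL -0.26, NARS -0.26 and COL3A1 -0.25. The synthetases GARS, LARS and NARS, the integrins ITGA1 and ITGA2 and the linker proteins from AHNAK to VCL are from lists drawn up after the values were seen.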

How the results depend on the processing

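The 69 named differences kept their sign under every alternative but spike-in scaling, wherever the gene was tested. Those that passed in every fit without 1 library numbered 31: MYC, SUSD6, TAF3, BHLHE40, ZNF654, TGIF1, BTG1, FAM102A, NREP, CASC5, DKK1, BCOR, DDIT4, AKIRIN2, CCNK, PPM1D, IER2, DUSP5, GART, HES1, KIF20A, PDGFRB, GADD45A, PLK2, CCNB1, ASNS, GARS, ITGA1, MYOF, SPTAN1 and VCL. The other 38 missed the threshold without at least 1 library. With spike-in scaling the median difference rose by 0.60, 2004 genes were higher and 1 lower, 26 of the 138 lower genes stayed below 0, and 10296 genes differed between the lines in CYC065. Of the 69, 28 turned from lower to above 0, none past the threshold: CDKN1A 0.33, GART 0.36, WWTR1 0.29, THBS1 0.21, COL12A1 0.21, KIF20A 0.19, CENPF 0.23, PDGFRB 0.18, MDM2 0.14, BUB1 0.24, TOP2A 0.26, CCNB1 0.31, LAMC1 0.35, COL3A1 0.38, ASNS 0.17, GARS 0.31, LARS 0.34, NARS 0.37, ITGA1 0.13, ITGA2 0.11, AHNAK 0.064, MACF1 0.13, DST 0.14, DYNC1H1 0.26, MYOF 0.28, SPTBN1 0.29, SPTAN1 0.31 and VCL 0.37. With only the 12 libraries 11 genes were higher and 3 lower, and 11 of the 69 passed: SUSD6, TAF3, BHLHE40, BTG1, DKK1, BCOR, DDIT4, AKIRIN2, FBXW7, DUSP5 and PLK2. At a 1.5-fold minimum 44 were higher and 28 lower, and 701 and 938 genes differed between the lines in DMSO and in CYC065. With a filter at 5 FPKM 216 were lower, and with FPKM as deposited 87. Without filter, 53 of the 69 passed. Leaving out 1 library gave 59 to 210 higher and 48 to 254 lower genes, and a ratio of the spreads from 1.059 to 1.164, beside 1.124 at a pseudocount of 0.01 and 1.135 with spike-in scaling. The cause was not tested where the counts moved, other than that a minimum fold can only remove calls. The columns are numbered 0 to 2 and the labels 1 to 3, so the planned replicate block on the label number was not run. A replicate block on the column number, added after the data were seen, gave 75 higher and 114 lower genes, with 60 of the 69 past the threshold. The deviations of libraries of the same number in different groups correlated with r of -0.04 to 0.12 (median 0.03). For libraries of other numbers r was -0.10 to 0.07 (median -0.02). On average 10 of 12 libraries were closest to their own number. The ranges overlapped, most libraries were nonetheless closest to their own number, and the main fit holds no such block. Whether the numbers pair the samples was not tested. Depth in reads is unknown, so a gene that did not pass is not shown to respond alike.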
